A study of Capra hircus with 3 samples.

Results

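The immediate early response genes were chosen as a list of 10 symbols, FOS, FOSB, FOSL2, JUN, JUNB, JUND, EGR1, ATF3, IER2 and DUSP1, and were found among the deposited loci by goat NCBI gene ID. A total of 9 of the 10 had a locus, among 13023 protein-coding genes, and JUND was not found by its ID and was not analysed here. Mammary gland tissue of 5 Laoshan dairy goats, 4 years old and in the third lactation, was collected surgically under xylazine anaesthesia in early lactation (10 days after parturition), peak lactation (90 days) and late lactation (210 days). The RNA of the 5 goats was pooled at each stage, which gave 1 library per stage, the E (early), P (peak) and L (late) libraries, and no untreated or other control group. The interval between anaesthesia and preservation of the tissue is not given in the sources used here.

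With 1 pooled library per stage there is no spread between replicates, so no test was applied and every difference below describes these libraries. The values are FPKM, fragment numbers scaled by the authors to transcript length and to the mapped reads of the library. The read numbers behind each FPKM are unknown and no interval is given. A gene was counted as apart when its FPKM differed at least 2-fold between libraries.

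Immediate early genes are transcribed within minutes of a growth factor, cytokine, mechanical or stress signal, without the need for new protein synthesis, through factors that are already present in the cell. FOS and JUN family proteins pair through leucine zippers to form the transcription factor AP-1, EGR1 is a zinc finger factor, and DUSP1 is a phosphatase that switches off the MAP kinases which started the response. Their mRNAs are short-lived, so their level in a tissue sample can reflect recent signalling, and in the mammary gland AP-1 factors have been linked to epithelial growth, cell survival and involution.

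The labelled tissue was checked against its defining markers. All 10 luminal epithelial markers were measured, and the milk protein gene CSN3 had 25446 FPKM in the E library, 3989 FPKM in the P library and 27391 FPKM in the L library. LALBA, another milk protein gene, had 70053 and 15214 FPKM in the E and P libraries and was listed at 0 in the L library. The milk fat genes BTN1A1 and XDH were also lowest in the P library, at 1241 and 509 FPKM. The columns were assigned to stages by the sample descriptions alone and no second label was used to check them, so E, P and L here stand for the labels. The low values of these milk genes in the P library bear on its label, and whether the P and L columns are exchanged was not tested. An exchange would turn the sign of every late over peak ratio given below and swap the peak over early with the late over early ratios. The most abundant locus, which has no gene ID, took 30.0%, 46.0% and 29.9% of all FPKM in the E, P and L libraries.

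Each of the 9 genes lay at 1 deposited locus on a scaffold, and no locus was shared with another entry. FOS was listed on NW_005100765.1 from 14062712 to 14066132, JUN on NW_005100642.1 from 18008974 to 18009853 and EGR1 on NW_005100721.1 from 7392261 to 7395752. IER2 (from 1425773 to 1427503) and JUNB (from 1733474 to 1733958) lay on the same scaffold, NW_005100712.1, 306 kb apart. The spans ran from 485 nt for JUNB and 880 nt for JUN to 11989 nt for FOSL2. FPKM divides by transcript length, so the levels of JUNB and JUN rest on the shortest loci of the set. Whether these loci hold the whole transcripts was not tested, so the levels of JUN and JUNB beside other genes are those of the listed loci. The methods name a goat reference genome, but the deposited loci carry scaffold names without a build, and the coordinates are given as listed. Exons and UTRs were not analysed here.

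All 9 measured genes were above 0 FPKM in every library, and their levels spanned a wide range. JUN, at its listed locus of 880 nt, was the most abundant by FPKM in each library and FOSB the least abundant. JUN lay above 98.0%, 97.8% and 95.7% of the protein-coding genes above 0 in the E, P and L libraries. In early lactation the order from highest to lowest FPKM was JUN, FOS, DUSP1, FOSL2, IER2, JUNB, ATF3, EGR1 and FOSB. In peak lactation JUNB moved from the sixth to the second place and FOS from the second to the sixth. Late lactation again had JUN first, now followed by FOSL2, IER2 and DUSP1, with FOS in the fifth place. Neighbours in these orders cannot be separated from library to library error, since no replicate is available. The median FPKM of the 9 genes was 23.0, 24.9 and 10.2 in the E, P and L libraries, beside 7.05, 7.23 and 6.92 for all protein-coding genes above 0.

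**Figure D1:**
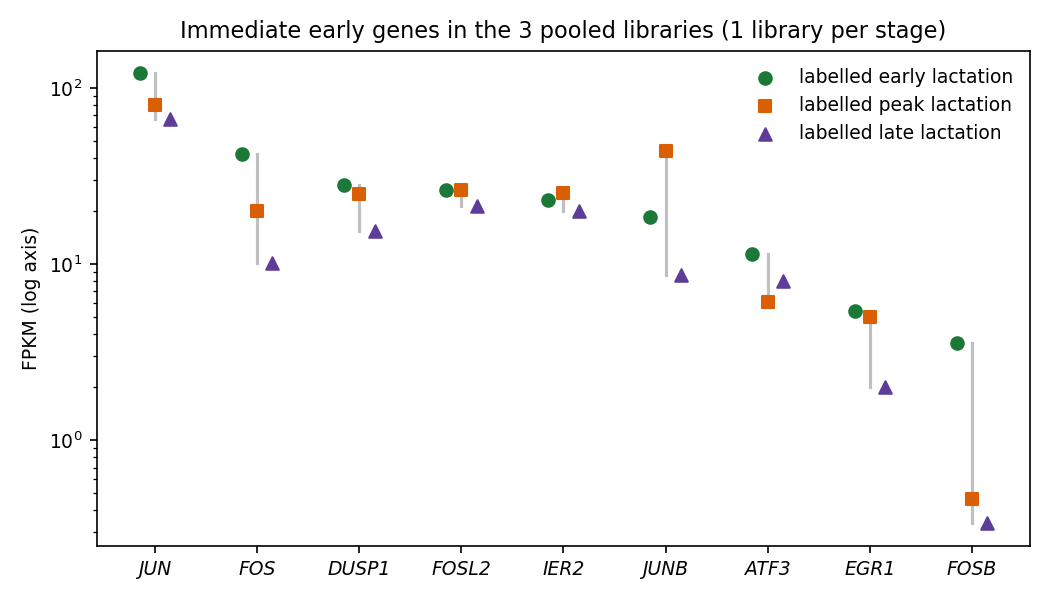
FPKM on a log axis of the 9 measured immediate early genes in the E (circles), P (squares) and L (triangles) libraries, with a grey line from the lowest to the highest value of each gene. The triangle is the lowest point for 8 of the 9 genes, and only ATF3 has its lowest value in the P library. Among all protein-coding genes above 0 in any library, 38.8% were lowest in the L library and 41.2% in the P library.

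Between the E and L libraries the members differed in one direction. All 9 had a lower FPKM in late than in early lactation, whereas 54.1% of the 13004 protein-coding genes tested were lower at any fold. At least 2-fold lower were 4 of the 9, FOSB, FOS, EGR1 and JUNB, and none was at least 2-fold higher. Among all protein-coding genes 6.74% were at least 2-fold lower and 1.97% at least 2-fold higher in this comparison. The median log2 ratio of late over early lactation was -0.87 over the 9 genes and -0.03 over all protein-coding genes. Summed over the 9 genes, the FPKM was 280 in early, 231 in peak and 152 in late lactation.

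Between early and peak lactation the members were split. FOS and FOSB were at least 2-fold lower and JUNB at least 2-fold higher in the P library. That is 2 of 9 lower and 1 of 9 higher, beside 6.8% and 10.9% of 13020 protein-coding genes. Peak and late lactation differed at least 2-fold for 2 of 9, JUNB and EGR1, both lower in late lactation. None was at least 2-fold higher, and the background in this comparison is high, with 17.4% of 13015 protein-coding genes lower and 8.56% higher. The 3 comparisons share libraries and are not independent. With the P and L columns exchanged, the early library remained the highest for 6 of the 9 genes, beside 23.4% of all protein-coding genes. The one-sided difference from early lactation then stood at 90 instead of 210 days.

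**Figure D2:**
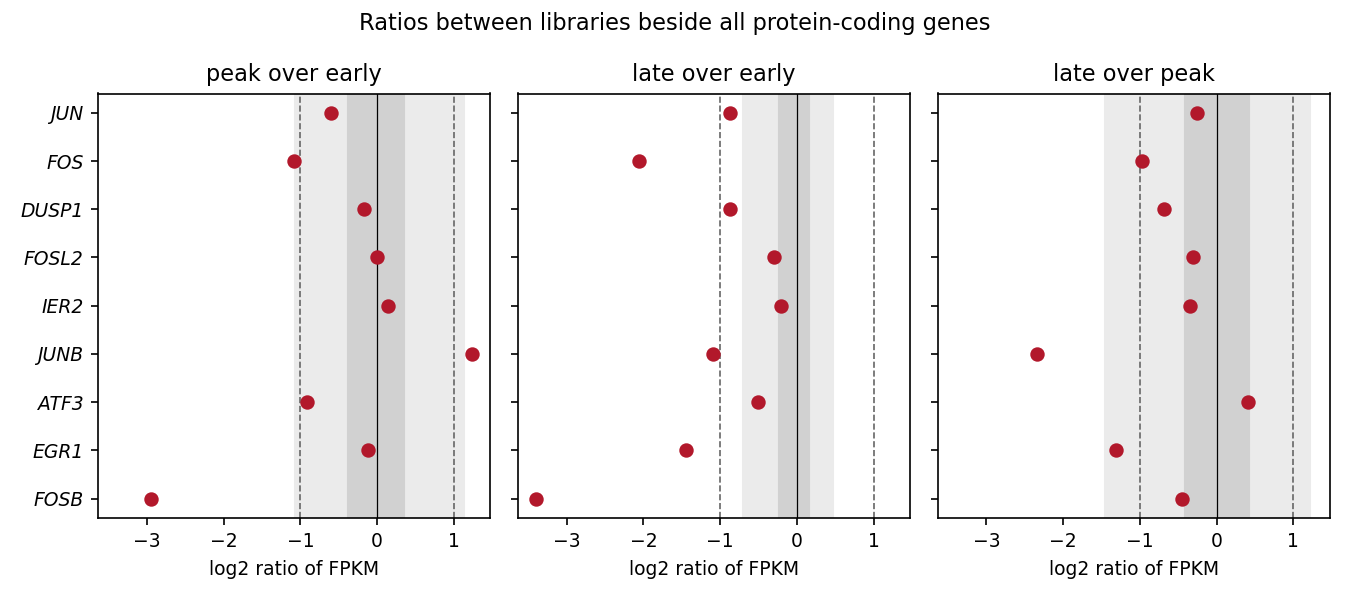
Log2 ratio of FPKM for each of the 9 genes (red points) in the 3 comparisons, with dashed lines at a 2-fold difference and grey bands for the middle 50% (dark) and 90% (light) of protein-coding genes of 1 FPKM or more in both libraries. In the middle panel every point lies left of 0, from -0.20 for IER2 to -3.40 for FOSB.

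FOS encodes a partner of JUN in AP-1 and is the best known immediate early gene. It had 42.1 FPKM in early, 19.9 FPKM in peak and 10.2 FPKM in late lactation. The late value was 4.15-fold lower than the early one, a log2 ratio of -2.05, and the peak value 2.11-fold lower, a log2 ratio of -1.08. The peak value came within 2-fold of the early one, a log2 ratio of -0.94, when FPKM were rescaled to the sum of each library, and -0.56 when the most abundant locus was left out of that sum. The step from peak to late lactation was of similar size, a log2 ratio of -0.97, just short of 2-fold. FOS thus went from above 92.7% of protein-coding genes in early lactation to above 62.3% in late lactation. Of the protein-coding genes with at least 1 FPKM in either library, 0.972% had a lower late over early ratio than FOS.

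FOSB, the close paralogue of FOS, showed the widest differences of the set. Its FPKM was 3.59 in early, 0.464 in peak and 0.339 in late lactation. The early value was thus 7.72-fold above the peak value and 10.6-fold above the late value, with log2 ratios of -2.95 and -3.40. Both later values lay under 1 FPKM, and with a pseudocount of 1 the log2 ratios were -1.65 for peak over early and -1.78 for late over early lactation. FOS and FOSB were in the same order in the 3 libraries, but FOSB was already near its lowest level in peak lactation, where FOS had reached an intermediate one.

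FOSL2, which encodes the FOS-related factor FRA2 and lacks the strong activation domain of FOS, stood apart from both. It had 26.3 FPKM in early, 26.4 FPKM in peak and 21.4 FPKM in late lactation. Its log2 ratios of 0.00 for peak over early and -0.30 for late over early lay within the range between the 5th and the 95th percentile of protein-coding genes of 1 FPKM or more in both libraries, -1.07 to 1.13 and -0.70 to 0.47, respectively. As FOS differed more than FOSL2, the make-up of the family differed between libraries. FOS made up 58.5% of the summed FPKM of FOS, FOSB and FOSL2 in early lactation, 42.6% in peak and 31.9% in late lactation. FOSL2 made up 36.6%, 56.4% and 67.1%. FOSL2 was thus below FOS in the E library and 2.11-fold above it in the L library. These shares compare levels within a library on the FPKM scale, and they do not depend on how libraries were scaled to each other.

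JUN, the AP-1 partner that can also pair with itself, had 121 FPKM in early, 79.5 FPKM in peak and 66.4 FPKM in late lactation. The values were 1.52-fold and 1.82-fold below early lactation, log2 ratios of -0.61 and -0.87, and did not reach 2-fold in any comparison. JUN was lower by less than FOS, so that the ratio of JUN to FOS was 2.87 in early, 3.98 in peak and 6.53 in late lactation.

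JUNB, which encodes a weaker activator that can counter JUN on some promoters, was highest in peak and lowest in late lactation. FOSL2 and IER2 had the same order with narrower differences. JUNB had 18.6 FPKM in early, 43.9 FPKM in peak and 8.68 FPKM in late lactation. The peak value was 2.37-fold above early and 5.06-fold above late lactation, and the late value was 2.14-fold below early lactation. The late over early log2 ratio of -1.10 was -0.97, just under 2-fold, after rescaling to the library sums. JUNB was the only one of the 9 genes at least 2-fold higher in the P than in the E library, beside 10.9% of all protein-coding genes. Its log2 ratio there was 1.24, above 93.2% of the protein-coding genes with at least 1 FPKM in either library. JUNB made up 13.3% of the summed FPKM of JUN and JUNB in early, 35.6% in peak and 11.6% in late lactation. With the P and L columns exchanged, JUNB would be highest at 210 and lowest at 90 days, with a log2 ratio of late over early of 1.24 in place of -1.10.

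**Figure D3:**
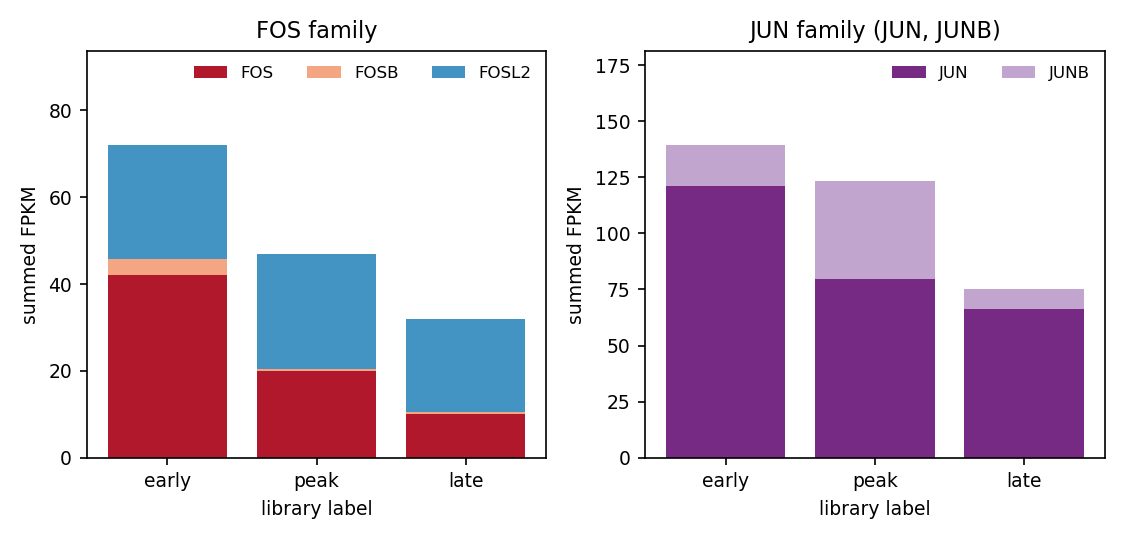
Stacked bars of FPKM in each library for FOS, FOSB and FOSL2 (left) and for JUN and JUNB (right), with both axes starting at 0. The FOSL2 part stays between 21.4 and 26.4 FPKM while the FOS part goes from 42.1 to 10.2 FPKM, and the JUNB part is tallest in the P library.

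EGR1, a zinc finger factor that is induced through the same serum response elements as FOS, had 5.44 FPKM in early, 4.99 FPKM in peak and 2.004 FPKM in late lactation. It was similar in the E and P libraries, a log2 ratio of -0.12, and lower by 2.71-fold in late than in early lactation, a log2 ratio of -1.44. EGR1 was also lower in late than in peak lactation, by a log2 ratio of -1.32. With a pseudocount of 1 this ratio was -0.995, just under 2-fold, and with the P and L columns exchanged it was 1.32. Below the median protein-coding gene in every library, it was, next to FOSB, the least abundant member.

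ATF3, a stress-induced factor of the ATF/CREB family that also pairs with JUN proteins, had 11.4 FPKM in early, 6.06 FPKM in peak and 8.04 FPKM in late lactation. It was the only member with its lowest value in the P library. The log2 ratios were -0.91 for peak over early, -0.50 for late over early and 0.41 for late over peak lactation, none of them 2-fold.

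DUSP1, the phosphatase that inactivates p38, JNK and ERK kinases in the nucleus, had 28.1 FPKM in early, 24.9 FPKM in peak and 15.4 FPKM in late lactation. Its late over early log2 ratio of -0.87 was the same as that of JUN to 2 decimals, while its peak over early ratio of -0.18 was nearer to that of EGR1. IER2, a small nuclear protein of the immediate early response, was, beside FOSL2, one of the 2 most even members, with 23.0 FPKM in early, 25.3 FPKM in peak and 20.0 FPKM in late lactation. The log2 ratio of IER2 was 0.14 for peak over early and -0.20 for late over early lactation. IER2 and JUNB lie on one scaffold and were both highest in peak and lowest in late lactation, an order that FOSL2 on another scaffold shared. JUNB was 5.06-fold higher in peak than in late lactation and IER2 1.27-fold.

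The members can thus be ordered by late over early log2 ratio. FOSB (-3.40), FOS (-2.05), EGR1 (-1.44) and JUNB (-1.10) were followed by DUSP1 and JUN (both -0.87), ATF3 (-0.50), FOSL2 (-0.30) and IER2 (-0.20). The last 3 of these lay above the 5th percentile of the protein-coding genes of 1 FPKM or more in both libraries, -0.70. The same order was not seen for peak over early lactation, where ATF3 followed FOSB and FOS with -0.91 and EGR1 was at -0.12.

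Assembled loci without a gene ID lay within 5 kb of 4 members, 7 loci in all, and their strand is not given. XLOC_006167, which begins 325 nt after the listed end of JUN and spans 11050 nt, had 9.18 FPKM in early, 5.52 FPKM in peak and 4.94 FPKM in late lactation. Its log2 ratios of -0.73 and -0.89 to early lactation lay close to those of JUN, -0.61 and -0.87. Near ATF3, all 3 loci had their highest value in early lactation. XLOC_033263 had 4.87, 1.79 and 2.66 FPKM in the E, P and L libraries, the same order as ATF3 and a wider log2 ratio of peak over early, -1.44 against -0.91. XLOC_024117, 456 nt after FOSL2, had 4.77, 4.07 and 2.86 FPKM. XLOC_024115, before FOSL2, was lowest in early lactation, with 1.09, 1.51 and 1.47 FPKM. XLOC_014231, 667 nt after IER2, was also lowest in early lactation and, like IER2, highest in peak lactation, with 0.209, 1.59 and 0.926 FPKM. Whether these loci belong to the transcripts of the neighbouring genes was not tested.

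Other immediate early genes were examined as a list of 47 symbols, of which 38 were measured. In late against early lactation, 36 of the 38 were lower at any fold, beside 54.1% of all protein-coding genes. The other 2, KLF2 and GADD45B, named after their values were seen, were higher. At least 2-fold lower were 10 and at least 2-fold higher 0, beside 6.74% and 1.97% of all protein-coding genes, and the median log2 ratio was -0.57, against -0.03 for all protein-coding genes. The 10 include NR4A3, which was listed at 0 in late lactation and had 0.715 and 0.459 FPKM in early and peak lactation. Between peak and early lactation, 3 were at least 2-fold higher and 6 at least 2-fold lower, beside 10.9% and 6.8%, and 21 of 38 were higher at any fold, beside 50.6% of all protein-coding genes. Between late and peak lactation, 12 were at least 2-fold lower and 1 higher, beside the 17.4% and 8.56% of all protein-coding genes given above.

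The genes named from this list were highest in early or in peak lactation. CTGF, a secreted matricellular protein induced by growth factors and mechanical load, had 49.5 FPKM in early, 18.3 FPKM in peak and 24.3 FPKM in late lactation. RHOB, an immediate early small GTPase, had 161, 76.5 and 108 FPKM in the same order. GADD45G, a growth arrest and stress gene, had 27.7 FPKM in early, 2.79 FPKM in peak and 6.74 FPKM in late lactation, 9.93-fold below early in peak lactation. These 3 were highest in early and lowest in peak lactation, as ATF3 was. CYR61, a matricellular relative of CTGF named after its values were seen, had 18.8, 9.33 and 3.52 FPKM, in the order of FOS and with a late over early log2 ratio of -2.42.

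Other named genes were highest in peak and lowest in late lactation, as JUNB, FOSL2 and IER2 were. Among all protein-coding genes 43.7% were highest in peak and 38.8% lowest in late lactation, and list genes with this order were not counted. BTG1, an antiproliferative gene with the highest single FPKM of the list, had 124 FPKM in early, 187 FPKM in peak and 86.9 FPKM in late lactation. NFKBIA, the inhibitor that NF-kappaB induces to limit itself, had 36.4, 51.0 and 23.0 FPKM. ZFP36L1, which promotes decay of AU-rich mRNAs, had 24.8, 43.7 and 15.5 FPKM. Each was at least 2-fold lower in late than in peak lactation and less than 2-fold from early lactation in both other comparisons. Named after their values were seen, the cytokine feedback inhibitor SOCS3 had 4.87, 10.7 and 1.69 FPKM and the TGF-beta-inducible factor KLF10 had 2.66, 7.39 and 1.04 FPKM, with log2 ratios of late over peak lactation of -2.66 and -2.83.

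The other AP-1 and bZIP partners were split in direction between early and late lactation. Of 21 listed, 19 were measured. In late against early lactation 10 were lower and 9 higher at any fold, beside 54.1% of all protein-coding genes lower, and the median log2 ratio was -0.02. ATF4, the stress response factor and the most abundant of this list, had 111 FPKM in early, 97.4 FPKM in peak and 119 FPKM in late lactation. The 2 partners at least 2-fold lower in late than in early lactation, beside 6.74% of all protein-coding genes, were BATF and BATF2, lymphoid and myeloid AP-1 factors. BATF had 0.906, 1.91 and 0.154 FPKM and BATF2 had 0.435, 1.19 and 0.0803 FPKM in the E, P and L libraries, so both rest on low values. CREB5 had 2.64, 3.67 and 1.68 FPKM. These 3 were highest in peak and lowest in late lactation, the order of JUNB.

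Upstream of the members, the kinases of the RAS, ERK, JNK and p38 cascades and the factors bound at immediate early promoters were examined as a list. A total of 32 of 36 listed genes were measured. In late against early lactation, 0 were at least 2-fold lower and 1 was at least 2-fold higher, beside 6.74% and 1.97% of all protein-coding genes. At any fold 21 of 32 were higher and 11 lower, beside 54.1% of all protein-coding genes lower, and the median log2 ratio was 0.08. The gene at least 2-fold higher was MAPK13, the p38-delta kinase, with 6.40 FPKM in early, 4.51 FPKM in peak and 14.0 FPKM in late lactation. SRF, the serum response factor, had 6.50, 5.84 and 5.95 FPKM. ELK4, an ETS partner of SRF with the highest single FPKM of the list, had 32.8, 22.0 and 28.4 FPKM. MKL1, an actin-sensing coactivator of SRF, had 2.47, 5.88 and 2.94 FPKM, MAP2K6 had 1.49, 3.15 and 1.47 FPKM, and RPS6KA1, a kinase activated by ERK, had 6.68, 10.9 and 4.80 FPKM. These 3 were highest in the P library.

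Of the other MAP kinase phosphatases and feedback inhibitors, 18 of 19 were measured, and 0 were at least 2-fold apart between early and late lactation. Between peak and early lactation 4 of 18 were apart and between late and peak lactation 5 of 18, beside 17.7% and 25.9% of all protein-coding genes, so these shares lie near the background, as does 0 of 18 beside 8.71% between early and late lactation. DUSP4, an inducible nuclear phosphatase and the most abundant of this list, had 116 FPKM in early, 33.5 FPKM in peak and 123 FPKM in late lactation, so that it exceeded DUSP1 in all 3 libraries. DUSP8 had 1.51, 0.259 and 0.969 FPKM and SPRY4, a receptor tyrosine kinase inhibitor, had 1.58, 0.901 and 2.30 FPKM, both also lowest in peak lactation. Opposite to these, DUSP5 had 0.552, 1.92 and 0.524 FPKM, DUSP10 2.21, 3.99 and 1.45 FPKM and DUSP14 1.41, 3.80 and 2.09 FPKM. None of these 6 genes had the order of DUSP1, highest in early and lowest in late lactation. DUSP2, an inducible nuclear phosphatase, and SPRY2, both named after their values were seen, had that order. DUSP2 had 6.52, 5.47 and 4.20 FPKM and SPRY2 had 12.8, 11.6 and 8.42 FPKM. Among all protein-coding genes 23.4% were highest in early and 38.8% lowest in late lactation.

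Heat shock genes, some of which are induced by heat and protein damage, were examined beside the members. Of 17 listed, 13 were measured, and 0 were at least 2-fold apart in any of the 3 comparisons, beside 17.7% of all protein-coding genes for peak over early, 8.71% for late over early and 25.9% for late over peak lactation. HSPA1A, HSPA1B, HSPA1L and HSPB1 were not measured, so these counts do not cover them. In late against early lactation 10 of the 13 were lower at any fold, beside 54.1% of all protein-coding genes. HSPA8, with the highest single FPKM of the list, had 274 FPKM in early, 240 FPKM in peak and 190 FPKM in late lactation. The median log2 ratio of late over early lactation was -0.23 and that of peak over early -0.22. MAFF belongs to the first list and to that of bZIP partners, and CREB1 to that of bZIP partners and to the upstream list.

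**Figure D4:**
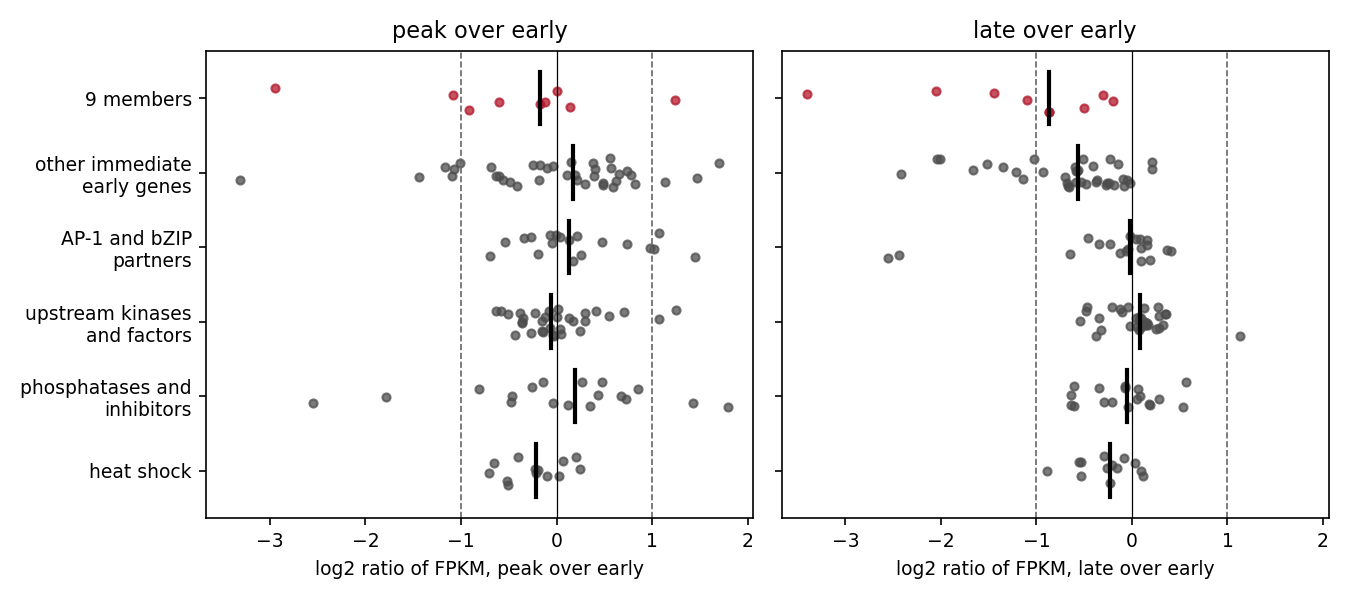
Log2 ratios of FPKM to the E library for the 9 members (red) and the genes of the 5 lists (grey), with peak over early lactation left and late over early right, dashed lines at 2-fold and a black bar at each median. NR4A3, listed at 0 in late lactation, is left out of the right panel, where all 9 members and all but 2 of the other immediate early genes shown lie left of 0.

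Genes with the pattern nearest to the members were sought among 7980 protein-coding genes with a mean of at least 5 FPKM, by the distance of their 2 log2 ratios to early lactation from the median pair of the members, -0.18 and -0.87. This likeness rests on 3 libraries. The nearest were DTNBP1, ZNF8, LOC102186858, CTDNEP1, PMF1, MOCS3, SEMA4A, RPP25L, TIPARP and PPP1R3D, at distances of 0.041 to 0.181. DTNBP1 had 9.42 FPKM in early, 8.38 FPKM in peak and 5.31 FPKM in late lactation. TIPARP, the only one of the 10 that was also on the list of other immediate early genes, had 18.3, 15.5 and 11.3 FPKM. These genes were picked for the smallest distances, so their nearness follows from the choice and says nothing about the spread of the members. The members lay at 0.430 for JUN, 1.49 for FOS and 3.76 for FOSB from their own median, with DUSP1 at the median itself.

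In whole tissue, fewer cells of a type and less RNA per cell cannot be told apart. Markers of other cell types differed between the same libraries. The summed FPKM of 5 of 6 listed myeloid markers was 55.1 in early, 75.9 in peak and 32.7 in late lactation. All 5 were highest in peak and lowest in late lactation, the order of JUNB. Among all protein-coding genes 43.7% were highest in peak and 38.8% lowest in late lactation. CD14 and ITGAM were nearly level between early and peak lactation, with log2 ratios of peak over early of 0.01 and 0.002. The 5 T cell markers summed to 12.7, 31.0 and 5.18 FPKM, with CD3E listed at 0 in the E and P libraries and 4 of 5 highest in peak lactation. The 4 measured neutrophil markers summed to 13.0, 24.9 and 5.30 FPKM, with S100A8 listed at 0 in late lactation. Of these, 3 were highest in peak and lowest in late lactation, while CSF3R was highest in late lactation, with 2.47, 2.44 and 2.70 FPKM. The 4 measured adipocyte markers summed to 18.9, 6.44 and 6.41 FPKM, and all 4 were lower in late than in early lactation, with PLIN4 listed at 0 there. The part of these cells in the levels of the members was not tested.

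Markers of the cells that form the gland differed less between early and late lactation. The 7 measured basal and myoepithelial markers summed to 278, 269 and 287 FPKM in the E, P and L libraries, and the 5 measured endothelial markers to 123, 111 and 135 FPKM. The 6 fibroblast markers summed to 664, 549 and 542 FPKM, and each was lower in late than in early lactation by less than 2-fold. Of the luminal markers other than LALBA, none was 2-fold apart between early and late lactation. Highest in peak lactation were 3 of 10 luminal, 2 of 7 basal and myoepithelial, 0 of 5 endothelial and 2 of 6 fibroblast markers. Of these, KRT18, KRT5, TP63, DCN and PDGFRA were also lowest in late lactation, the order of JUNB. No blood marker was found by symbol, and 1 of 4 skeletal muscle markers was measured, with at most 1.37 FPKM.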

How the data were processed

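The authors trimmed the paired reads with Trimmomatic and aligned them with TopHat2 2.0.9. Transcripts were built with Cufflinks 2.1.1, joined with Cuffmerge and measured with Cuffdiff. What the authors deposited is 1 FPKM value per library for each of 50041 loci, without read counts, and 0 other per-sample columns were present. The methods name a goat reference genome, while the loci carry scaffold names without a build.

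Symbols and gene classes came from the RefSeq gene table of assembly ARS1.2, in which 14403 of the 15274 loci carrying one gene ID were found. Where a gene ID had several loci, their FPKM were added. Ratios used the FPKM as deposited, with 0 set to 0.001, and genes were counted at a ratio of at least 2. No test was run, because each stage has 1 library. Counting was checked on simulated data. No protein, promoter or genome sequence was used here.

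The members and lists were chosen with earlier results of these data known. List genes named are those at least 2-fold apart with at least 1 FPKM in the higher library, at most 6 per list by highest FPKM, and the gene with the highest FPKM of each list. One gene that this rule names is not reported here. The promoter motifs and protein features that the design listed were not analysed. Alternatives were pseudocounts of 0.1 and 1, filters at 1 FPKM, the highest locus per gene, other scalings, an exchange of the columns labelled peak and late, and folds of 1.5 and 4. Python 3.11.15, numpy 2.4.6, pandas 2.3.3 and matplotlib 3.10.9 were used.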

Additional observations from a re-analysis of the deposited data

How the results depend on the processing

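No paired analysis was possible because only 1 library was made per stage, and none was left out. The read numbers behind each FPKM are unknown, which limits FOSB, BATF and BATF2 most. All 9 members stayed lower in late than in early lactation under each alternative that kept the labels and the gene in the comparison.

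Members apart numbered 3 for peak over early, 4 for late over early and 2 for late over peak lactation. At a fold of at least 4 they numbered 1, 2 and 1, and at 1.5 they were 5 for peak over early and 4 for late over peak lactation. Late over peak gave 1 with a pseudocount of 1, where EGR1 was lost, and 4 when FPKM were scaled to the library sum without the most abundant locus. That scaling moved the median log2 ratio of protein-coding genes of 1 FPKM or more in both to 0.50 for peak over early, 0.11 for late over early and -0.37 for late over peak lactation, from -0.03, -0.01 and 0.03. Under it DUSP1 and EGR1 had log2 ratios of peak over early lactation of 0.34 and 0.39, both still below that median.

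List genes apart numbered 18, 13 and 26 in the 3 comparisons. They were 8, 5 and 17 with a pseudocount of 1, 37, 25 and 48 at a fold of at least 1.5, and 2, 6 and 5 at a fold of at least 4. Late over early gave 8 with 1 FPKM or more in both, while the scaling without the most abundant locus gave 29 for peak over early and 40 for late over peak lactation.

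All protein-coding genes apart numbered 2307, 1132 and 3377. They were 1194, 277 and 1983 with a pseudocount of 1, 1433, 323 and 2021 with 1 FPKM or more in both, 4788, 2310 and 5724 at a fold of at least 1.5, and 463, 427 and 1127 at a fold of at least 4. With at least 1 FPKM in either library, late over early gave 702. Scaling without the most abundant locus gave 3548 for peak over early lactation and moved the share higher in peak lactation from 61.6% to 89.0%, and in late against peak lactation the share higher in late went from 33.0% to 15.3%. Scaling to the whole library sum moved the share higher in peak lactation to 72.6%. With a pseudocount of 1 it was 50.3%.

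With the P and L columns exchanged, protein-coding genes apart numbered 1132 for peak over early and 2307 for late over early lactation. The log2 ratios of JUNB became -1.10 for peak over early, 1.24 for late over early and 2.34 for late over peak lactation, and that of EGR1 for late over peak lactation 1.32. Of 239 single-member values recomputed under the alternatives, 94 did not move by 0.005 or more, 141 moved without turning a call around and 4 reversed, all 4 by the exchange. A reversal was counted only where the main ratio was at least 2-fold. Another sign was seen for 18 values, 3 of them outside the exchange. These 3 were peak over early ratios, DUSP1 and EGR1 as given above and EGR1 at 0.02 after rescaling to the library sum. Causes were not tested beyond the stricter or looser fold, filter or scaling itself.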

Other observations

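The deposited FPKM show a pattern of last digits that the sources used here do not explain. Of the values written with 7 significant digits, 95.7%, 99.3% and 97.3% end in the digit 5 in the E, P and L columns. Of the 27 values of the 9 immediate early genes, 17 have 7 or more digits and all 17 end in 5. Values of 6 digits averaged in pairs would have this form. Whether each library was quantified more than once was not tested.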
